A study of Homo sapiens with 6 samples.

Results

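The steroid hormone receptor genes ESR1, ESR2, PGR and NR3C1 and the 4 ERBB receptor tyrosine kinase genes EGFR, ERBB2, ERBB3 and ERBB4 were followed in MDA-MB-231 cells depleted of ING2. Every probe set that the platform annotation assigned to 1 of these genes alone was taken, which gave 43 probe sets of the 54613 on the array that are not controls, and 8 genes of 19777. A probe set is a group of short oligonucleotides that together read 1 transcript region. MDA-MB-231, an established cell line from a human breast cancer, is known to lack the estrogen receptor, the progesterone receptor and ERBB2 amplification. In the control group 3 samples received a non-targeting siRNA, and in the other group 3 samples received a single siRNA against ING2, whose product binds methylated histone H3 within a SIN3 deacetylase complex. The labels name 1 transfection reagent, Dharmafect 1, and no second ING2 siRNA, and they state that RNA was taken 4 days after transfection in one place and 3 days in another.

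Steroid hormone receptors are transcription factors of the nuclear receptor family. They are held by HSP90 chaperones until a hormone binds, and then recruit coactivators or corepressors at target genes. Estrogen receptor alpha, encoded by ESR1, drives luminal breast cells, and the progesterone receptor gene PGR is a classical estrogen target. The ERBB receptors sit in the cell membrane, bind ligands of the EGF and neuregulin families, pair with one another and signal through the RAS-MAPK and PI3K-AKT routes. ERBB2 has no known ligand, ERBB3 has a weak kinase and acts through its partners, and breast tumours without hormone receptors often carry EGFR.

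ING2 mRNA was measured first, as a check of the labels. Its brighter probe set, 205981_s_at, gave intensities of 1400, 1349 and 1324 units with the non-targeting siRNA and of 163, 188 and 161 units with the ING2 siRNA, a level of 12.5% of control (log2 change -2.997, SE 0.09, limma adjusted p = 1.58e-06 over all probe sets, n = 3 per group). The arrays differed in more than ING2. The median log2 change was 0.12 for probe sets in bins 2 to 5 of 10 ordered by intensity and -0.10 in the brightest bin. Median intensity was 76.1 ± 0.9 units in controls and 80.0 ± 1.5 after ING2 siRNA, and the GAPDH control probe sets read 0.205 ± 0.015 and 0.316 ± 0.042 log2 units more at their 3' end than at their 5' end (SD, n = 3, exact two-sided permutation p = 0.1 for both, the smallest that 3 against 3 arrays allow). The same measure for ACTB overlapped between the groups, at 0.490 ± 0.110 and 0.541 ± 0.096 (SD, n = 3, exact two-sided permutation p = 0.6). Their part in the receptor values was not tested. Of 11 measured markers of the mesenchymal line, 10 read above 281 units in controls, the 95th percentile of 41 probe sets of 21 genes of other tissues that served as a reference for background. Among these 11 markers 0 rose, 1 fell and 9 had values below 0, while over all genes 3.62% rose and 4.67% fell. These markers were bright, with a median at percentile 98.6 of all genes. Their median change was -0.085, near the -0.10 of the brightest bin. Of 12 markers of luminal breast epithelium, 6 read above 281 units, 1 rose and 0 fell. Of fibroblast markers it was 1 of 8 (2 rose and 1 fell) and for blood cell markers 1 of 7 (1 rose and 1 fell), with summed levels of 1002 to 1126 and 1054 to 1058 units for fibroblasts and 844 to 917 and 891 to 964 units for blood cells in control and ING2 siRNA arrays, and no marker listed at 0. The labels do not say that the replicates were separate cultures, so a p-value here reflects only variation among these 6 samples, which may be technical.

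None of the 43 receptor probe sets changed past the threshold, a Benjamini-Hochberg adjusted limma p under 0.05 over all probe sets, against 5.28% of all probe sets called, 1.64% higher and 3.64% lower. Of the calls over all probe sets 31.1% were higher after ING2 siRNA, and 28.5% after quantile normalization, 15.2% after cyclic loess and 8.70% after median centring. The smallest limma adjusted p of a receptor probe set was 0.0638, and the receptors' log2 changes ran from -0.50 to 0.53. At an unadjusted limma p under 0.05 there were 14 of the 43 (32.6%), against 28.0% of all probe sets. The 3 control arrays and the 3 ING2 siRNA arrays did not overlap in 16 of the 43 (37.2%, against 32.8% of all probe sets), with the ING2 siRNA arrays higher in 14 (32.6%, against 20.5%) and lower in 2 (4.65%, against 12.3%). The count of 0 depended on the setting: 6 receptor probe sets passed with array weights, 5 without dim probe sets, 3 with a pseudocount of 16, 2 after quantile normalization, 2 with an intensity trend in eBayes, 1 without control replicate 1, and 0 after cyclic loess or median centring. The 95% interval of the change lay within 1.5-fold in either direction for 33 probe sets, and for the other 10 it reached further.

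**Figure D1:**
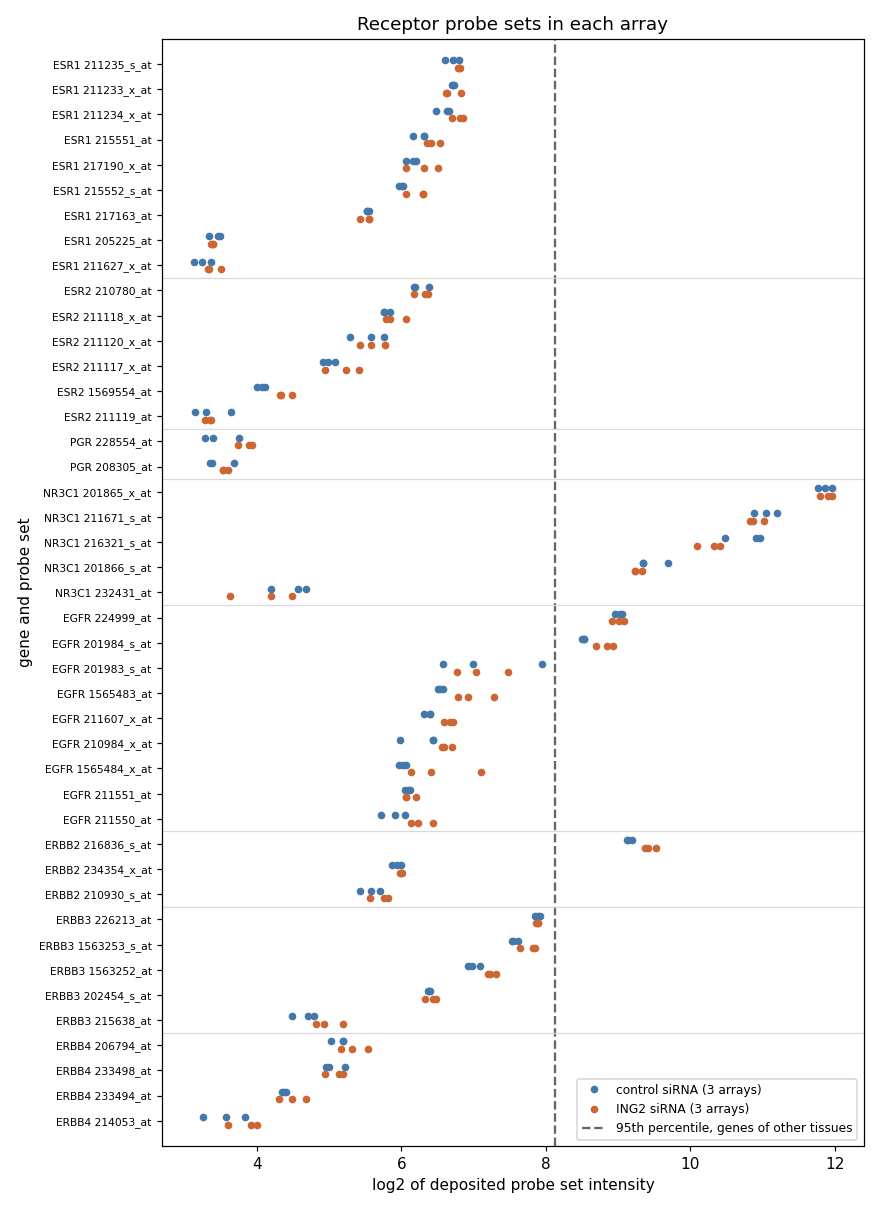
Log2 of the deposited intensity (x axis) of each of the 43 receptor probe sets (y axis) in the 3 control siRNA arrays and the 3 ING2 siRNA arrays, 1 point per array. The dashed line is the 95th percentile of probe sets of genes of other tissues, and 7 probe sets, of NR3C1, EGFR and ERBB2, lie above it.

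Levels in the control arrays divided the genes. Only 7 probe sets, 4 of NR3C1, 2 of EGFR and 1 of ERBB2, read above the 281 units of the background reference, and the other 36 lay within it, among them all probe sets of ESR1, ESR2, PGR, ERBB3 and ERBB4. One reference gene, MBP, was far brighter than the rest at 2249.6 units in controls. A value within the reference range cannot be told from background signal here, and the brightness of probe sets does not order genes by transcript level. Of the 43 probe sets, 24 were below the median intensity of all probe sets.

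Among the steroid receptors, the estrogen receptor genes gave no value above the reference. ESR1 had 9 probe sets with control means from 9.50 to 104.9 units. Its probe set 205225_at read 10.1, 11.025 and 11.2 units in controls and 10.5, 10.3 and 10.5 after ING2 siRNA. The groups overlapped, and the log2 change was -0.05 (SE 0.08, 95% interval -0.24 to 0.14). The changes of the 9 ran from -0.05 to 0.22, and the smallest adjusted p in limma was 0.156. The groups did not overlap in 3 of the 9 (33.3%), all 3 higher after ING2 siRNA, against 20.5% of all probe sets. These were 211234_x_at (0.20), 215551_at (0.18) and 215552_s_at (0.22), all brighter than 205225_at and within the background reference. The interval stayed within 1.5-fold for all 9, but at these intensities it bounds the signal of the probe sets and not the ESR1 transcript.

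ESR2, which encodes estrogen receptor beta, had 6 probe sets at 10.2 to 75.7 units in controls. The dim probe set 1569554_at read 17.3, 16.0 and 16.8 units in controls and 22.3, 20.1 and 20.0 after ING2 siRNA, so that all 3 ING2 siRNA arrays lay above all controls. Its log2 change of 0.31 (SE 0.09) had a limma adjusted p of 0.0669, and 0.0429 to 0.187 over the alternatives. The other 5 overlapped, with changes from -0.02 to 0.20. PGR had 2 probe sets near the bottom of the scale. 228554_at read 9.72, 10.5 and 13.5 units in controls and 15.2, 13.3 and 14.9 after ING2 siRNA, with overlap, and a log2 change of 0.38 (SE 0.13, limma adjusted p = 0.0984). 208305_at read 10.2, 12.8 and 10.4 units against 11.5, 12.1 and 11.5, a log2 change of 0.08. The probe sets of both genes thus stayed in the range of background in both groups.

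NR3C1, the glucocorticoid receptor gene, was the 1 steroid receptor here with probe sets above the reference. Its brightest probe set, 201865_x_at, read 3475, 3977 and 3747 units in controls and 3549, 3975 and 3849 after ING2 siRNA. The groups overlapped closely, at a log2 change of 0.02 (SE 0.09, 95% interval -0.18 to 0.23). 216321_s_at read 1427, 1918 and 1995 units in controls and 1090.2, 1366 and 1291 after ING2 siRNA, with every ING2 siRNA array below every control. This log2 change of -0.50 (SE 0.14, 95% interval -0.81 to -0.19, to 70.6% of control) had a limma adjusted p of 0.0663, and 0.0176 to 0.190 over the alternatives. It passed in 5 of 15 alternatives: 4 that kept all arrays, among them array weights (limma adjusted p = 0.0240) and dim probe sets left out (0.0473), and 1 without control replicate 1 (0.0176). It did not pass after any of the scalings (limma adjusted p = 0.0536 after median centring, 0.127 after quantile normalization and 0.118 after cyclic loess).

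211671_s_at of NR3C1 read 1889, 2357 and 2117 units against 1814, 2082 and 1864, with overlap and a log2 change of -0.14 (SE 0.11), and -0.061 without control replicate 2. 201866_s_at read 649.9, 824 and 652 units against 602, 646 and 603, without overlap, and a log2 change of -0.19 (SE 0.11, limma adjusted p = 0.275). Without control replicate 2, the highest, it was -0.078. The dim 232431_at overlapped, at -0.38 (SE 0.20), and at -0.14 without ING2 siRNA replicate 1. So 4 of the 5 NR3C1 probe sets were below 0 in the deposited values and after quantile normalization or cyclic loess, and 5 of 5 after median centring. Probe sets of like intensity had a median change of -0.10 for 201865_x_at, 211671_s_at and 216321_s_at, -0.07 for 201866_s_at and 0.12 for 232431_at. The median of the 5 was -0.19 as deposited, -0.26 after median centring, -0.084 after quantile normalization and -0.12 after cyclic loess. Quantile normalization and cyclic loess put the brightest, 201865_x_at, at 0.16 and 0.13, and 211671_s_at at -0.0032 and -0.039. The within-array difference between the brightest and the next, 201865_x_at minus 211671_s_at, was 0.16 log2 units larger after ING2 siRNA (SD 0.06 in each group, exact two-sided permutation p = 0.1, the smallest possible, 0.267 adjusted over 8 genes). The unequal values for NR3C1 thus lay outside the spread of these arrays but could not pass a test of this size.

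NR3C1 is annotated with several transcription starts, and RefSeq windows of 300 bases (250 before to 50 after a start) were available for 7 of them, with GC contents from 34.7% to 82.3%. The gene was picked because its probe sets differed, and whether the use of a start bears on that was not tested. The windows of highest and lowest GC content are shown, 5' to 3' in GRCh38.p14. Each GC box (GGGCGG or its reverse CCGCCC, the sequence bound by SP1) is in capitals.
NR3C1 GC-rich start, chr5:143403637-143403936, minus strand: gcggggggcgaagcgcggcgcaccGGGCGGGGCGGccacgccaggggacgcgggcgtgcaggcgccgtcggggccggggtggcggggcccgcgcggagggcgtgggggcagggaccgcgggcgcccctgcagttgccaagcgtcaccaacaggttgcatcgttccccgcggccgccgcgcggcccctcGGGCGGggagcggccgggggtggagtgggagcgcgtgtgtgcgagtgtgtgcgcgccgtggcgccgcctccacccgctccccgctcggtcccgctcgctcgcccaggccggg
NR3C1 AT-rich start, chr5:143435463-143435762, minus strand: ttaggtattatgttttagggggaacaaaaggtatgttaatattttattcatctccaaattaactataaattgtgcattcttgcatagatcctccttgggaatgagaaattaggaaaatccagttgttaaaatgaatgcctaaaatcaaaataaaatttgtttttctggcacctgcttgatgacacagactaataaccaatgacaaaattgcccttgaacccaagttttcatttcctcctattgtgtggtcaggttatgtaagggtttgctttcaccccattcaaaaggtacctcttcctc
The first window held 3 GC boxes, and the second held 0. Over the 7 windows, 5 held a GC box, against 44.95% of all 35116 windows in the table. The arrays do not tell which start gave a transcript, and a match describes the letters alone.

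**Figure D2:**
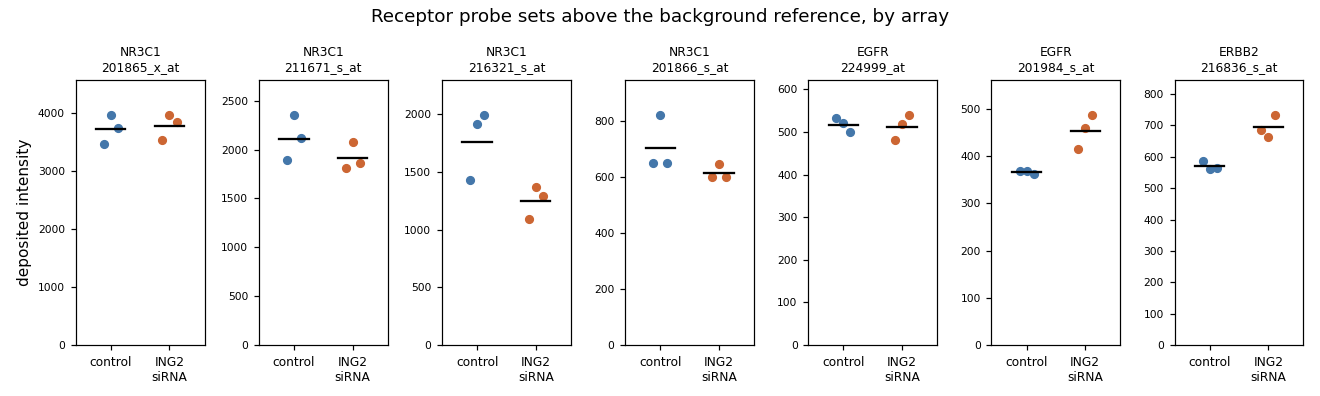
Deposited intensity (y axis, from 0, separate scale in each panel) of the 7 receptor probe sets above the background reference, with 1 point per array and a line at the geometric mean of each group of 3. EGFR 201984_s_at and ERBB2 216836_s_at were higher and NR3C1 216321_s_at and 201866_s_at lower in all ING2 siRNA arrays, and the other 3 overlapped.

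The ERBB receptors gave 21 probe sets, of which 18 (85.7%) were above 0 in the deposited values, against 62.5% of all probe sets (14 of the 21 after median centring, 16 after quantile normalization and 14 after cyclic loess) and 0 passed. The groups did not overlap in 10 of the 21 (47.6%), each with the ING2 siRNA arrays higher, against 20.5% of all probe sets. Of the 21, 18 lay within the background reference, and among the 41 probe sets of that reference 12 did not overlap and were higher, 2 were lower, and the median log2 change was 0.14. The median log2 change of the 21 was 0.21, against 0.07 over all probe sets, and 0.18 against 0.00 after cyclic loess. Of the 21, 15 were above the median change of probe sets of like intensity. Probe sets of 1 gene read the same transcripts and are not replicates, so these counts describe the arrays and carry no test.

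EGFR, the receptor of EGF, TGF-alpha and amphiregulin, was read by 9 probe sets, and the brightest of them differed from each other. 224999_at read 532, 522 and 499 units in controls and 481, 518 and 540.4 after ING2 siRNA, overlapping throughout, with a log2 change of -0.01 (SE 0.09, 95% interval -0.21 to 0.18). 201984_s_at read 369, 369 and 363 units in controls and 415, 461 and 488 after ING2 siRNA, each above all controls. This log2 change of 0.30 (SE 0.09, 1.24-fold) had a limma adjusted p of 0.0760, and 0.0411 to 0.209 over the alternatives, the lowest after quantile normalization. The within-array difference between these 2 probe sets was 0.32 log2 units lower after ING2 siRNA (-0.32, SD 0.04 in controls and 0.03 after ING2 siRNA). The shift lay outside the spread of these arrays. The exact two-sided permutation p was 0.1, the smallest possible (adjusted 0.267 over 8 genes), so the test could not pass. How often probe sets of the same gene separate in this way was not measured.

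The remaining EGFR probe sets lay within the background reference. 201983_s_at read 247, 95.1 and 128 units in controls and 109, 131 and 179 after ING2 siRNA, the widest spread of any receptor probe set (SD 0.70 log2 units in controls). Its log2 change of -0.07 (SE 0.30) had no settled sign, being 0.31 without control replicate 1, 0.12 with array weights and 0.087 when ING2 siRNA replicate 1 was left out. 1565483_at read 92.8, 91.1 and 95.8 units against 110.3, 121 and 156, without overlap, at a log2 change of 0.46 (SE 0.12) with the smallest limma adjusted p of any receptor probe set, 0.0638 (0.0372 to 0.162 over the alternatives). 1565484_x_at, 211607_x_at, 210984_x_at and 211550_at also did not overlap, with changes of 0.53, 0.30, 0.33 and 0.37 and limma adjusted p from 0.0698 to 0.131. The first of these read 69.9, 85.2 and 137 units after ING2 siRNA and was at 0.25 without ING2 siRNA replicate 3 and 0.73 without replicate 1. 210984_x_at was at 0.18 without control replicate 1, its lowest control. 211551_at read 66.4 to 69.5 units in controls and 66.6 to 73.7 after ING2 siRNA, at 0.02. In all, 6 of 9 EGFR probe sets (66.7%) were higher in every ING2 siRNA array, against 20.5% of all probe sets. Of the 6, 5 lay within the background reference, at intensities where the median change of all probe sets was 0.10 to 0.12. In that reference 12 of 41 probe sets were also higher without overlap. The 9 read 1 gene and are not replicates, so the count carries no test.

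The annotation gives EGFR 2 starts with a RefSeq window. EGFR was picked because its brightest probe sets differed, and whether the use of a start bears on that was not tested. Both windows are shown, again with GC boxes in capitals.
EGFR GC-rich start, chr7:55018767-55019066, plus strand: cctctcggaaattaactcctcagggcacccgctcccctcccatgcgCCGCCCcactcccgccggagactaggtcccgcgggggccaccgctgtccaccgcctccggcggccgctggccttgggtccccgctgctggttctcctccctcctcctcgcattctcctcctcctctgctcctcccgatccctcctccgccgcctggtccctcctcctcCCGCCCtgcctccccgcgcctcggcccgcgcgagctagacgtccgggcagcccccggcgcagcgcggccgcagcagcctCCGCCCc
EGFR AT-rich start, chr7:55109589-55109888, plus strand: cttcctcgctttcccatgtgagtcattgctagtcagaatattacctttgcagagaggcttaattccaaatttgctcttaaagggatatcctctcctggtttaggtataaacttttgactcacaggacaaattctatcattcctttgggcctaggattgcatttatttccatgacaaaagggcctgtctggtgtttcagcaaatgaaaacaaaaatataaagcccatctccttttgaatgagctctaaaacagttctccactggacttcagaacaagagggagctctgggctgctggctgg
The first window had a GC content of 75.3% and 3 GC boxes. The second had 42.0%, 0 GC boxes and 2 matches to TATAAA on either strand, a TATA box motif found in 11.5% of all windows. Over the 25 windows of 7 of the 8 genes, 14 held a GC box, 11 a CCAAT box (CCAAT on either strand, in 34.6% of all windows) and 2 a TATA box motif. The probe sets were not placed on these transcripts here.

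ERBB2, the partner receptor without a known ligand, had 1 probe set above the reference. 216836_s_at read 587, 560.01 and 564 units in controls and 685, 664 and 734 after ING2 siRNA, so that the lowest ING2 siRNA array was above the highest control. The log2 change of 0.28 (SE 0.08, 95% interval 0.09 to 0.47, 1.22-fold) had a limma adjusted p of 0.0772. Over the alternatives this p ran from 0.0409 to 0.206, and in all 6 fits that each left out 1 array the change stayed between 0.24 and 0.31 without passing. Probe sets of like intensity had a median change of -0.07. The 2 dimmer probe sets, 234354_x_at at 61.0 units and 210930_s_at at 47.6 units in controls, overlapped, with changes of 0.06 and 0.14, and the first was below 0 after each of the scalings (-0.01 after median centring, -0.03 after quantile normalization and -0.06 after cyclic loess). Between 216836_s_at and 234354_x_at the within-array difference grew by 0.22 (SD 0.04 and 0.07, exact two-sided permutation p = 0.1, adjusted 0.267).

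ERBB3, the neuregulin receptor that signals through its partners, had 5 probe sets, the brightest just under the reference limit. 226213_at read 230, 241 and 238 units in controls and 237, 238 and 232 after ING2 siRNA, at a log2 change of 0.00 (SE 0.08, 95% interval -0.18 to 0.18). 1563253_s_at read 196, 185 and 187 units against 226, 199 and 232, without overlap, at 0.21 (SE 0.09, limma adjusted p = 0.176). 1563252_at and 215638_at also did not overlap, at 0.24 and 0.31 (0.21 for the latter without ING2 siRNA replicate 1), and 202454_s_at overlapped at 0.03. ERBB4, a receptor of neuregulins with an active kinase, had 4 probe sets at 11.7 to 35.1 units in controls, all overlapping, with changes from 0.03 to 0.28 and a smallest limma adjusted p of 0.249. For both genes the brightest probe set overlapped between the groups, and any higher values came from probe sets within the background range.

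**Figure D3:**
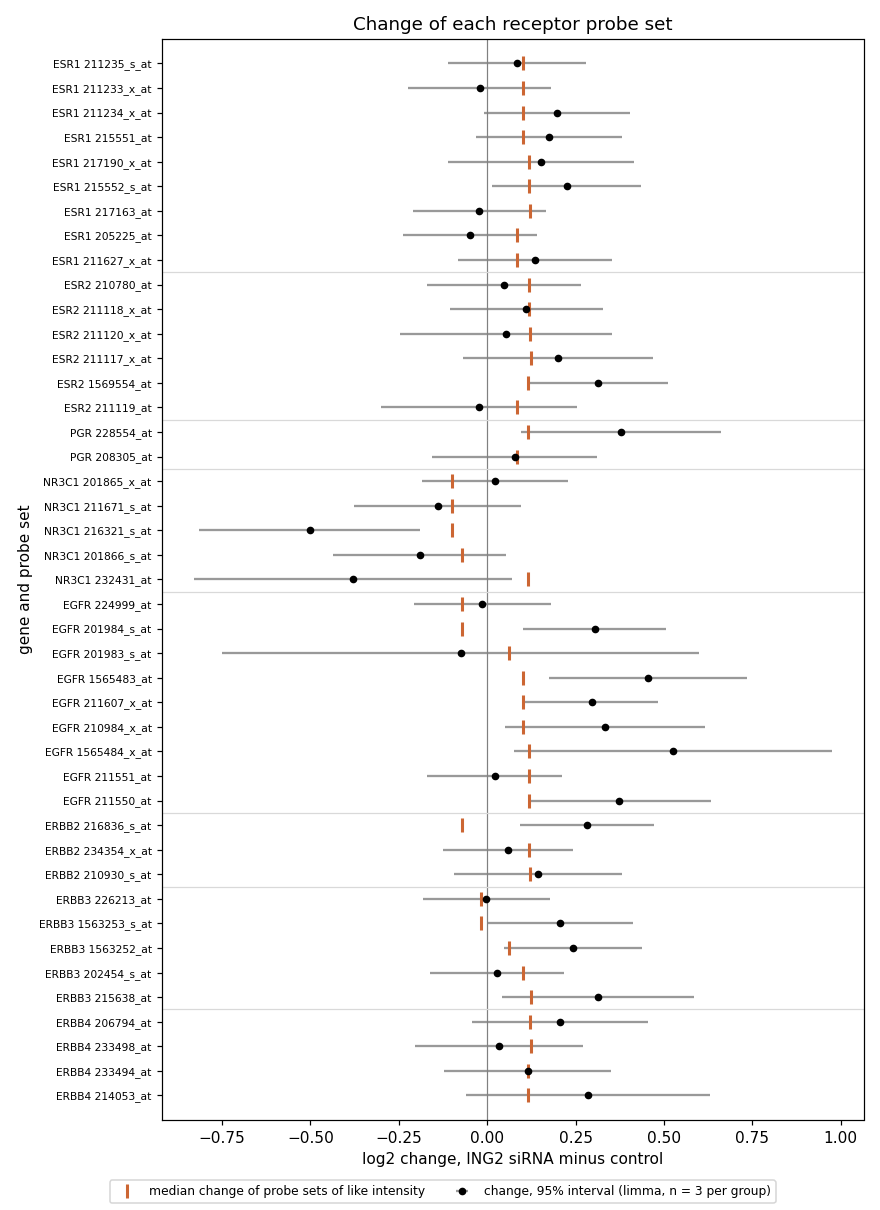
Log2 change after ING2 siRNA (x axis, point) with its 95% interval from limma (line) for each of the 43 receptor probe sets (y axis), n = 3 arrays per group. The coloured tick is the median change of all probe sets of like intensity, and 24 of the 43 points lie above it and 19 below.

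Genes with a profile like that of a receptor were sought for EGFR 1565483_at and NR3C1 216321_s_at, the probe sets with the smallest p of the 2 receptor genes with the smallest p. Over the 6 arrays, EGFR 1565483_at had its highest Pearson correlations with GPSM3 (0.997), GHDC (0.996) and THSD4 (0.995). NR3C1 216321_s_at had them with GASK1B (0.999), the spindle checkpoint kinase gene TTK (0.999) and PXK (0.999). With 6 arrays in 2 groups such values are common: 253 and 667 genes were above 0.95.

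Genes that act with the receptors were counted in 10 lists at 1 probe set per gene, the brightest, with 153 of 178 listed genes measured. Of these, 3 rose (1.96%) and 7 fell (4.58%), or 10 in all (6.54%), against 3.62%, 4.67% and 8.29% of all 19777 genes in limma at adjusted p under 0.05. Each of these 10 calls was lost when any 1 of 4 arrays was left out, namely control replicates 2 and 3 and ING2 siRNA replicates 1 and 3, and 6 of the 10 were kept after cyclic loess. With probe sets averaged per gene 5 were kept, and CXCL12, EPS15, NCOA1, PGRMC2 and PIK3CB were not. The receptors were tested in the fit over all probe sets, which called a smaller share. In that fit the same probe sets of STAM, CNIH1, PIK3CB and NCOA1 did not pass (limma adjusted p = 0.0528, 0.0683, 0.0534 and 0.0610). Counts for lists and for receptor probe sets are therefore not on the same footing. Among 9 ERBB ligands, BTC, a ligand of EGFR and ERBB4, fell by 0.50 (SE 0.12, limma adjusted p = 0.0369, from 74.9 to 53.1 units), and none rose. Both of its probe sets passed in the fit over all probe sets, and both lay within the background reference. TGFA, an EGFR ligand, had a value of -0.26 and HBEGF, a ligand of EGFR and ERBB4, a value of 0.17, neither past the threshold, and the median of the ligands was 0.00. None of the 10 genes of ligand shedding and receptor trafficking rose, 3 fell and the median was -0.07. They were EPS15 (-0.58, SE 0.12, limma adjusted p = 0.0295) and STAM (-0.49, SE 0.12), which sort receptors into endosomes, and CNIH1 (-0.35, SE 0.09), which carries EGF family ligands out of the endoplasmic reticulum. After cyclic loess the limma adjusted p was 0.0584 for STAM and 0.120 for CNIH1. The other probe set of EPS15 was at -0.18 and that of CNIH1 at -0.22, neither past the threshold.

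Of 13 feedback inhibitors and ubiquitin ligases of the ERBB receptors, only the phosphatase gene PTPN12 fell (-0.36, SE 0.08, limma adjusted p = 0.0358, 0.0813 after cyclic loess) and none rose, with a median of 0.01. Its dim probe sets, within the background reference, were at -0.79 and 0.14. In the fit over all probe sets the former passed (limma adjusted p = 0.0149) and the latter did not. Values of the EGFR inhibitor gene ERRFI1 (-0.01) and of the ubiquitin ligase gene CBL (-0.17) did not pass. In 19 measured adaptors and members of the RAS-MAPK and PI3K-AKT routes, the kinase gene PIK3CB fell by 0.45 (SE 0.11, limma adjusted p = 0.0404, 0.0549 after quantile normalization), none rose and the median was 0.10. The other PIK3CB probe set, a dim one, was at -0.02. Of 19 other receptor tyrosine kinases 0 passed, with 17 above 0 and a median of 0.13. FGFR1 had the smallest limma adjusted p, 0.0509 at 0.32, and passed in 8 of 10 alternatives that kept all arrays and in 0 of 6 that left out 1, followed by KIT (0.0729 at 0.29). The other FGFR1 probe sets ran from -0.14 to 0.26. The calls on PTPN12 and PIK3CB were also lost on leaving out any 1 of those 4 arrays (control replicates 2 and 3, ING2 siRNA replicates 1 and 3).

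**Figure D4:**
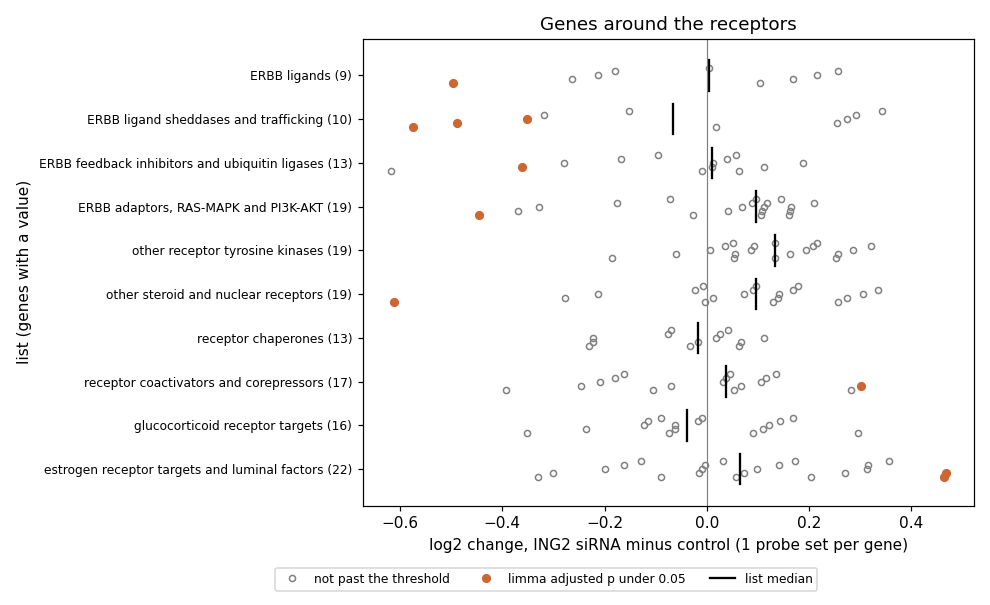
Log2 change after ING2 siRNA (x axis) of each measured gene in 10 lists around the receptors (y axis, with the number measured), at 1 probe set per gene. Filled points passed limma adjusted p under 0.05, of which 7 genes fell and 3 rose, and the vertical bar is the list median.

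On the side of the steroid receptors, 19 other steroid and nuclear receptor genes had 0 rises, 1 fall and a median of 0.10. PGRMC2, a membrane protein that binds progesterone and heme, fell by 0.61 (SE 0.14, limma adjusted p = 0.0352, from 863 to 565 units), while its other probe set was at -0.03. Of 13 receptor chaperones 0 passed at the brightest probe set, with a median of -0.02. The smallest limma adjusted p were those of HSP90AA1 (0.0925 at -0.22), the inducible HSP90 gene, and PTGES3 (0.0963 at -0.23), its p23 cochaperone. Dimmer HSP90AA1 probe sets were lower still. In the fit over all probe sets, 210211_s_at (-0.42, limma adjusted p = 0.0391) and 211968_s_at (-0.94, 0.00312) passed, and 211969_at (-1.18, 0.0602) did not. At the probe set of largest interquartile range per gene, 7 chaperone genes passed, 1 higher and 6 lower. Among 17 coactivators and corepressors the coactivator gene NCOA1 rose by 0.30 at its brightest probe set (SE 0.08, limma adjusted p = 0.0430), 0 fell, the median was 0.04, and NCOA1 had a limma adjusted p of 0.0835 after median centring. The other NCOA1 probe sets did not go one way, at 0.22, -0.05 and -0.12, and none of them passed. These calls on PGRMC2 and NCOA1 were absent when control replicate 2, control replicate 3, ING2 siRNA replicate 1 or ING2 siRNA replicate 3 was left out, and that on NCOA1 also without control replicate 1.

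Targets of the receptors were measured too. Of 16 glucocorticoid receptor targets 0 passed, and the median was -0.04. NFKBIA (-0.35, limma adjusted p = 0.0544) and ANGPTL4 (0.30, 0.0598) came nearest, while the classical targets FKBP5 and TSC22D3 had values of -0.02 and -0.12. The other NFKBIA probe set, a dim one, went the opposite way, at 0.19 without overlap, and the other ANGPTL4 probe set was at 0.03. Among 22 estrogen receptor targets and luminal factors 2 rose and 0 fell, with a median of 0.06, the same as over all genes. CXCL12, a chemokine gene, rose by 0.47 (SE 0.08, limma adjusted p = 0.0224, from 51.6 to 71.4 units), and TFF1, a secreted peptide gene and textbook estrogen target, rose by 0.46 (SE 0.10, limma adjusted p = 0.0302, from 68.3 to 94.3 units). Both lie within the background reference, after cyclic loess TFF1 had a limma adjusted p of 0.0617, the second CXCL12 probe set was at -0.05, and neither passed when control replicate 2, control replicate 3, ING2 siRNA replicate 1 or ING2 siRNA replicate 3 was left out. The luminal factor genes GATA3 and FOXA1 had values of -0.20 and 0.10 that did not pass. In bulk arrays, fewer cells with a transcript and less of it per cell cannot be told apart.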

How the data were processed

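RNA of 6 samples was hybridised to 1 array each. The deposited values are a linear intensity for each probe set. Per the submitters' processing notes RMA and R 2.12 were used, while filters, and how values became linear, are not stated there. Depth has no meaning for arrays, and their number limits the precision.

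Of 54675 probe sets, 62 controls were left out. Gene names came from the platform's annotation, with symbols updated through RefSeq: 41091 probe sets named 1 gene, 1801 several and 11721 none. The log2 of each value was compared with limma 3.58.1 in R 4.3.3 (lmFit, eBayes), ING2 siRNA minus control, without covariates, over all 54613 probe sets; for lists, over 19777 genes at the probe set of highest mean. Adjusted p-values are Benjamini-Hochberg.

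The receptors, lists and tests were chosen with earlier results of these data known. Named genes are ING2, the receptors, up to 4 rises and 4 falls per list or, where none passed, the 2 with the smallest p, and the 3 genes most like a receptor probe set; others were named after their values were seen. In data simulated for this comparison over 54613 probe sets, 27% of 100 changes of 0.5 and 81% of 100 changes of 1 (log2) were recovered. No other probe set was changed there and no shift with intensity was put in, whereas 5.28% of all probe sets were called in the data. The Benjamini-Hochberg adjustment depends on that share, so the recovered shares describe the simulated setting only. Alternatives were 3 scalings, a pseudocount of 16, a filter on dim probe sets, an intensity trend, array weights, the replicate block, leaving out each array, other probe set choices and a threshold of 0.1. RefSeq promoter windows were searched for 3 motifs.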

Additional observations from a re-analysis of the deposited data

How the results depend on the processing

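The direction of the ING2 value and its call held in all 15 alternatives (limma adjusted p at most 0.000123). Calls elsewhere moved. With array weights there were 6048 calls over all probe sets, 3858 over all genes and 6 of receptor probe sets; with the replicate block 4549, 3508 and 2; at an adjusted p under 0.1, 7994 probe sets and 8 receptor probe sets. Receptor calls were 5 without dim probe sets, 3 with a pseudocount of 16, and 2 each with the intensity trend or quantile normalization. Gene calls were 2620 with probe sets averaged per gene and 3260 at the probe set of largest interquartile range. Leaving out 1 array gave 218 to 3845 probe set calls, 2 to 2598 gene calls and 0 to 1 receptor calls; gene calls were 2 or 3 when control replicate 2, control replicate 3, ING2 siRNA replicate 1 or ING2 siRNA replicate 3 was absent. Whether the replicate numbers pair the samples is not settled by these values: deviations of same-numbered arrays correlated at 0.155, 0.201 and 0.01. Control replicates 1 and 2 were each closest to the ING2 siRNA array of the same number, and control replicate 3 to ING2 siRNA replicate 2 (0.053). In the lists, calls with array weights, the intensity trend, the largest interquartile range and the replicate block were 2, 2, 4 and 3 for adaptors, 2, 2, 3 and 3 for feedback inhibitors, 6, 4, 5 and 7 for estrogen receptor targets, 2, 2, 4 and 2 for glucocorticoid receptor targets, and 2, 1, 3 and 1 for other receptor tyrosine kinases. Sheddases and trafficking had 7, 5 and 5 with array weights, the mean of probe sets and the largest range, other nuclear receptors 3, 2 and 3 with array weights, the largest range and the block, chaperones 3, 2, 3 and 7 with array weights, the trend, the mean and the largest range, and coactivators 2, 3, 2 and 0 with array weights, the largest range, the block and median centring. The mean gave 2 for adaptors and 2 for feedback inhibitors. Without dim probe sets the ligands had 0; adaptors, glucocorticoid targets and other nuclear receptors had 2 each without dim probe sets and with the pseudocount, and other receptor tyrosine kinases 1 in both, after cyclic loess and after quantile normalization. Median centring gave 2 for adaptors and other nuclear receptors and 1 for glucocorticoid targets, and cyclic loess 1 for estrogen targets. Leaving out 1 array gave 0 to 3 for adaptors, 0 to 2 for feedback inhibitors and glucocorticoid targets, 0 to 6 for sheddases, 0 to 5 for estrogen targets, 0 to 4 for other nuclear receptors and 0 to 1 for ligands, coactivators and other receptor tyrosine kinases. None of the receptor values that turned sign was called, and EGFR 201983_s_at moved furthest (0.12 with array weights, -0.37 to 0.31 leaving out 1 array). ERBB4 233494_at and ESR2 211118_x_at, both at 0.11 as deposited, were among those that turned. After cyclic loess, median centring and quantile normalization the log2 changes were for EGFR 211551_at -0.090, -0.051 and -0.061, ERBB2 234354_x_at -0.057, -0.013 and -0.028, ERBB3 202454_s_at -0.069, -0.043 and -0.043, ERBB4 233498_at -0.093, -0.038 and -0.063, ESR2 210780_at -0.056, -0.024 and -0.027 and ESR2 211120_x_at -0.071, -0.018 and -0.042 (-0.0067 with array weights). EGFR 224999_at was 0.045 after loess, 0.085 after quantile normalization and 0.0079 with array weights. PGR 208305_at was -0.020 and -0.023 after these scalings, ERBB3 226213_at 0.041 after quantile normalization, ERBB4 233494_at -0.00087 and ESR2 211118_x_at -0.0078 after loess, and NR3C1 201865_x_at -0.049 after median centring. Leaving out 1 array, the ranges were -0.026 to 0.048 for EGFR 211551_at, -0.052 to 0.032 for EGFR 224999_at, -0.0058 to 0.073 for ERBB3 202454_s_at, -0.023 to 0.013 for ERBB3 226213_at, -0.019 to 0.12 for ERBB4 233498_at, -0.089 to 0.019 for ESR1 211233_x_at, -0.046 to 0.022 for ESR1 217163_at, -0.13 to 0.12 for ESR2 211119_at, -0.073 to 0.16 for ESR2 211120_x_at and -0.028 to 0.070 for NR3C1 201865_x_at, and the within-array difference of ESR2 ranged from -0.14 to 0.077. The cause of these shifts was not tested. Signal over background limits 36 of the 43 receptor probe sets.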

Other observations

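HSP90AA1, which encodes a chaperone of the steroid receptors, was read by 4 probe sets that differed. In the fit over all probe sets its brightest, 214328_s_at, had a log2 change of -0.22 (limma adjusted p = 0.131), 210211_s_at fell by 0.42 (limma adjusted p = 0.0391), 211968_s_at fell by 0.94 (limma adjusted p = 0.00312), and 211969_at was at -1.18 (limma adjusted p = 0.0602). These probe sets were named after their values were seen.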
